A study of Mus musculus with 23 samples.

Results

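The 10 genes Atf3, Atf4, Ddit3, Hspa5, Xbp1, Trib3, Chac1, Asns, Ddit4 and Ddit4l, which belong to or are linked to the integrated stress response and the response to stress of the endoplasmic reticulum (ER), were followed in cultures of mouse hippocampal neurons. They were chosen by name, matched through their Ensembl gene IDs, and are 10 of 55487 gene IDs counted. The cultures were made from C57Bl/6 pups of postnatal day 1, with 200000 cells seeded on the soma side of a microfluidic chamber whose narrow channels lead to an axonal side. All groups, controls included, received magnetic nanoparticles at 5 µg/ml. Stretched cultures lay in a magnetic field gradient of 50 T/m from day in vitro 1 to 6, and the controls in a null gradient. The RNA came from the axonal side, in 5 control and 6 stretched libraries, or from the total culture with the cell bodies, called soma here, in 6 control and 6 stretched libraries. The labels do not say which libraries came from separate cultures, so p-values measure the spread between libraries.

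The integrated stress response begins when 1 of several kinases, among them PERK at the ER, phosphorylates the translation factor eIF2, which lowers general protein synthesis and raises translation of the Atf4 mRNA. ATF4 then acts as a transcription factor on genes of amino acid supply and on further regulators, among them ATF3, CHOP (the product of Ddit3) and TRIB3. Unfolded protein in the ER also acts through the sensors IRE1, which splices the Xbp1 mRNA, and ATF6, both of which raise chaperones such as BiP (Hspa5). Read counts per gene do not show phosphorylation, translation or the splicing of Xbp1.

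The sequences that this regulation is known to read were found in front of some of the genes and are shown for 4 of them. All 10 genes had a window in the RefSeq promoter table (build GRCm38.p6), which runs from 250 bases before the annotated start to 50 after it. The ATF4 composite element was searched as TGATGNAA on both strands and was present in 4 of the 10 windows (Atf3, Trib3, Chac1 and Asns), against 3.97% of all 32851 windows. The ER stress response element, searched on both strands as CCAAT and CCACG with 9 bases of any kind between them, was present in the window of Hspa5 and in 0.119% of all windows. The cAMP response element, searched as TGACGTCA, was present in none of the 10 and in 1.79% of all windows. The searched motifs do not overlap one another in these windows. A match is a description of the letters and not evidence of binding. The 200 bases before the RefSeq start are given 5′ to 3′ on the strand of the gene, with the matched motif in capitals, for the genes with a match there: Asns (chr6:7693210-7693409, minus strand), Atf3 (chr1:191183334-191183533, minus strand), Chac1 (chr2:119351042-119351241, plus strand) and Hspa5 (chr2:34771890-34772089, plus strand). In Trib3 the match TTACATCA began 15 bases after the start.
Asns: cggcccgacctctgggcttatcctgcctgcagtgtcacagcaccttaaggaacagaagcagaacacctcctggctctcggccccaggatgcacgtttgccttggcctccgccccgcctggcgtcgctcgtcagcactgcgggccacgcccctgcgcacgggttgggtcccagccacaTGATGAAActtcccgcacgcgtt
Atf3: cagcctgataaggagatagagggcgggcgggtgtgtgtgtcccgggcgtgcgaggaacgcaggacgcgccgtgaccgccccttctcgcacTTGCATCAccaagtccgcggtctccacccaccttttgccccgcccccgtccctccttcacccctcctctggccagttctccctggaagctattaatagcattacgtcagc
Chac1: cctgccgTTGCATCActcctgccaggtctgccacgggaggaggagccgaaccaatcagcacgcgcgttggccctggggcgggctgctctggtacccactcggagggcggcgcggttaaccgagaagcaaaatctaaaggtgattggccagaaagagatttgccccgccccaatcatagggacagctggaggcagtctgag
Hspa5: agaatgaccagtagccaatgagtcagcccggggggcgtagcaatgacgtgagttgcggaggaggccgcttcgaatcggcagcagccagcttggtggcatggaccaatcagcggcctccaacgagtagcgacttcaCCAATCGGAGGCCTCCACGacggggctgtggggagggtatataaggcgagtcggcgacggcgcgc

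Depth ranged from 16369153 to 43048953 counts per library, so that the floor of 3 counts used below stands for 0.0697 to 0.183 CPM (counts per library scaled to the same total of gene counts). At least 1 count was found for 4263 to 10242 genes in axonal libraries and for 22452 to 24575 in soma libraries. All 12 neuronal markers had counts in every group. So had all 8 astrocyte markers: their summed level ran from 4651 to 25629 CPM in control axons, from 4790 to 19604 in stretched axons, from 5121 to 14075 in control somata and from 5354 to 11400 in stretched somata. The axonal libraries, labelled a pure axonal preparation, thus held RNA of astrocyte marker genes. The 10 markers of somatodendritic and nuclear RNA summed to 1099 to 3005 CPM in control axons (all 10 with counts) and 543 to 2924 CPM in stretched axons (Dlgap3 at 0), against 1975 to 2911 CPM in control and 1410 to 2153 CPM in stretched somata. The summed microglial level had a median of 0.111 CPM and a highest value of 494 CPM in control axons. Of the 8 microglial markers, 5 were at 0 in every control axon library (Cx3cr1, P2ry12, Csf1r, Aif1 and C1qa), and 1 in every stretched axon library (P2ry12). The summed microglial level was lower in stretched somata (28.3 to 36.4 CPM) than in control somata (38.4 to 76.3 CPM), without overlap. In bulk RNA, fewer cells of a type and less RNA per cell cannot be told apart.

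In control somata all 10 genes were detected in every library, at levels that spanned 2 orders of size once divided by transcript length. Per kilobase of the longest annotated transcript, the level was 208 ± 22.5 CPM for Hspa5, 189 ± 33.2 for Asns and 110 ± 10.3 for Xbp1 (SD, n = 6). It was 85.8 ± 21.9 for Atf4 and 71.9 ± 28.0 for Ddit4, then 18.9 ± 3.67 for Ddit4l, 18.3 ± 3.64 for Ddit3 and 17.9 ± 4.69 for Chac1 (SD, n = 6). Atf3 at 5.78 ± 2.47 and Trib3 at 2.11 ± 0.844 CPM per kilobase were the lowest (SD, n = 6). In this order the ranges of mean ± SD overlapped for Hspa5 and Asns, for Xbp1 and Atf4, for Atf4 and Ddit4, and for Ddit4l, Ddit3 and Chac1. The genes were not compared library by library, so this overlap does not show that their levels were equal. The level of Ddit3 may be too low, since 105 of its 1713 exonic bases are also annotated as a second gene ID of the same name, which had 0 counts in all libraries, and reads in shared bases count for neither. In all, 10.9% of the exonic bases of Ddit3 overlap another annotated gene, and those of the other 9 overlap none.

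The first comparison asked what the pull on the particles did to these genes in somata. Of the 10 genes 4 fell and 0 rose in stretched somata, and these 4 were Atf4, Ddit3, Chac1 and Xbp1 (edgeR quasi-likelihood test, adjusted p under 0.05). Gene positions below are those of GRCm38, the same assembly as the mm10 build of the files. Over all 15632 genes tested, 25.1% passed, 11.2% higher and 13.9% lower. The median log2 fold change of the 10 genes was -0.45, and that of all genes tested was -0.03. Of the 10 fold changes 9 lay below 0, with Ddit4 as the exception. For none of the 10 did the groups separate without overlap, as they did for 4.11% of all genes. The microglial markers also differed between these groups (above), and of the 10 somatodendritic and nuclear markers 4 were lower and 2 higher, with a median of -0.31. The part of either list in the changes was not tested.

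**Figure D1:**
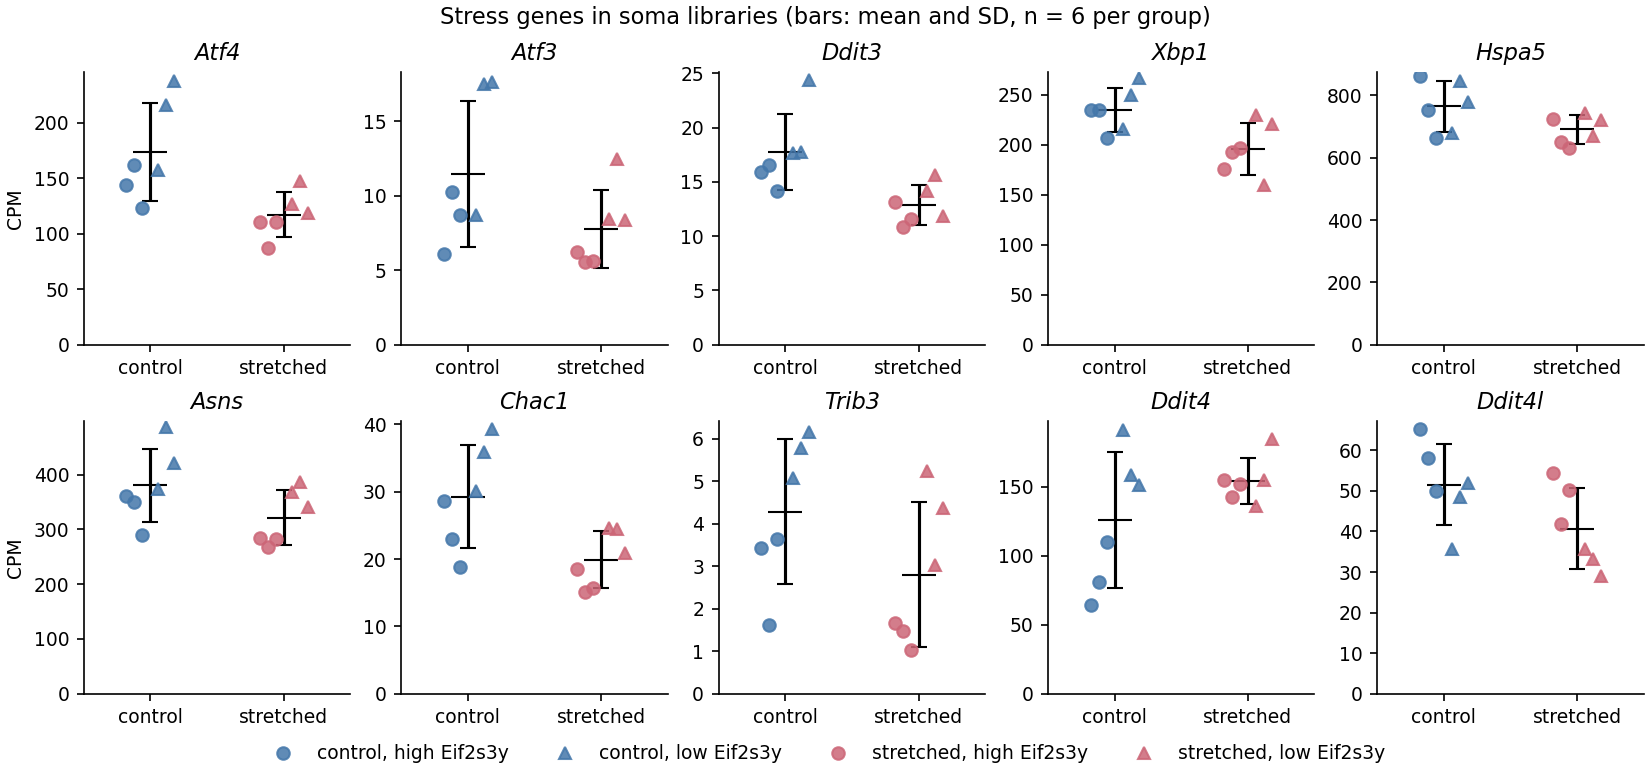
Level of each gene in the 12 soma libraries in CPM (vertical axis from 0), control in blue and stretched in red, with mean and SD (n = 6 per group). Circles are libraries with high and triangles with low Eif2s3y, a split described in the text. In every panel at least 1 stretched library lies within the range of the controls, and circles and triangles separate for Trib3, Chac1 and Asns within each condition.

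Among the transcription factors, Atf4 (chr15:80255184-80257541, plus strand), the central effector of the integrated stress response, lay between 123 and 238 CPM in control somata (median 160) and between 87.0 and 148 CPM in stretched somata (median 115). The ranges overlapped, and 4 stretched libraries lay below every control library. The mean fell from 173 ± 44.2 CPM to 117 ± 20.2 CPM (SD over 6 libraries). On the log2 scale this was -0.61 with an SE of 0.16 (adjusted p = 0.0164 in edgeR). Ddit3 (chr10:127290774-127296288, plus strand), which encodes the pro-apoptotic factor CHOP, lay between 14.2 and 24.4 CPM in controls (median 17.1) and between 10.8 and 15.7 CPM in stretched somata (median 12.5). Its mean fell from 17.8 ± 3.52 to 12.9 ± 1.83 CPM (SD, n = 6 each), by 0.51 on the log2 scale (SE 0.15, edgeR adjusted p = 0.0219). Xbp1 (chr11:5520659-5525893, plus strand), whose spliced mRNA encodes a factor for ER folding genes, lay between 207 and 267 CPM in controls (median 235) and between 160 and 230 CPM in stretched somata (median 194). It fell by 0.30 on the log2 scale (SE 0.10, edgeR adjusted p = 0.0375), the smallest of the 4 changes that passed. Atf3 (chr1:191170296-191218039, minus strand), a stress- and injury-induced factor, lay between 6.06 and 17.7 CPM in controls (median 9.47) and between 5.55 and 12.5 CPM in stretched somata (median 7.27). Its log2 fold change of -0.60 had an SE of 0.28 and did not pass (edgeR adjusted p = 0.122).

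Among the targets, Chac1 (chr2:119351229-119354381, plus strand), an enzyme that degrades glutathione, lay between 18.9 and 39.3 CPM in controls (median 29.3) and between 15.1 and 24.7 CPM in stretched somata (median 19.7). The mean fell from 29.3 ± 7.67 CPM to 19.9 ± 4.19 CPM (SD over 6 libraries), which was -0.60 on the log2 scale (SE 0.19, edgeR adjusted p = 0.0303). Asns (chr6:7675169-7693254, minus strand), asparagine synthetase, had values of 290 to 486 CPM in controls and 267 to 387 CPM in stretched somata, a change of -0.28 (SE 0.13) that did not pass (edgeR adjusted p = 0.114). Trib3 (chr2:152337422-152344032, minus strand), a pseudokinase that binds ATF4 and AKT, was the lowest of the 10, with 29 to 146 counts per soma library, at 1.61 to 6.15 CPM in controls and 1.03 to 5.23 CPM in stretched somata. Its change of -0.65 (SE 0.40) did not pass either (edgeR adjusted p = 0.248). Hspa5 (chr2:34771970-34777547, plus strand), the main chaperone of the ER lumen, was the most abundant of the 10 and among the least variable, at 764 ± 82.5 CPM in control and 691 ± 45.9 CPM in stretched somata (SD, n = 6 each). Its change was -0.19 (SE 0.09, edgeR adjusted p = 0.121).

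The paralogs Ddit4 and Ddit4l (REDD1 and REDD2) encode inhibitors of the growth kinase complex mTORC1, and their fold changes had opposite signs. Ddit4 (chr10:59949669-59951834, minus strand) spread from 64.0 to 191 CPM in control somata (median 131) and only from 136 to 185 CPM in stretched somata (median 154), a log2 change of 0.25 with SE 0.22 (adjusted p = 0.412 in edgeR). Ddit4l (chr3:137621612-137628333, plus strand) lay between 35.6 and 65.4 CPM in controls (median 50.9) and between 29.0 and 54.4 CPM in stretched somata (median 38.7), a change of -0.39 (SE 0.16, edgeR adjusted p = 0.0946). Neither passed.

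The number of calls among the 10 genes in somata depended on the libraries and on a correction for transcript length and GC content. It was 1 (Atf4) without control soma replicate 5 or without replicate 6, and 2 (Atf4 and Ddit3) without control replicate 1, stretched replicate 2 or stretched replicate 8, while Atf4 was called in all 12 fits that left out 1 library. Across all genes the change with stretch moved with transcript length: the median log2 fold change of the 4721 genes with a longest transcript of 1500 to 3000 bases, where 8 of the 10 lie, was -0.18, and 19.4% of them were called lower. With offsets for transcript length and GC content only Hspa5 was called, at -0.29 (SE 0.09, edgeR adjusted p = 0.0409). The change of Atf4 was then -0.38 (edgeR adjusted p = 0.158), that of Ddit3 -0.32 (0.171), that of Chac1 -0.31 (0.321) and that of Xbp1 -0.10 (0.516).

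**Figure D2:**
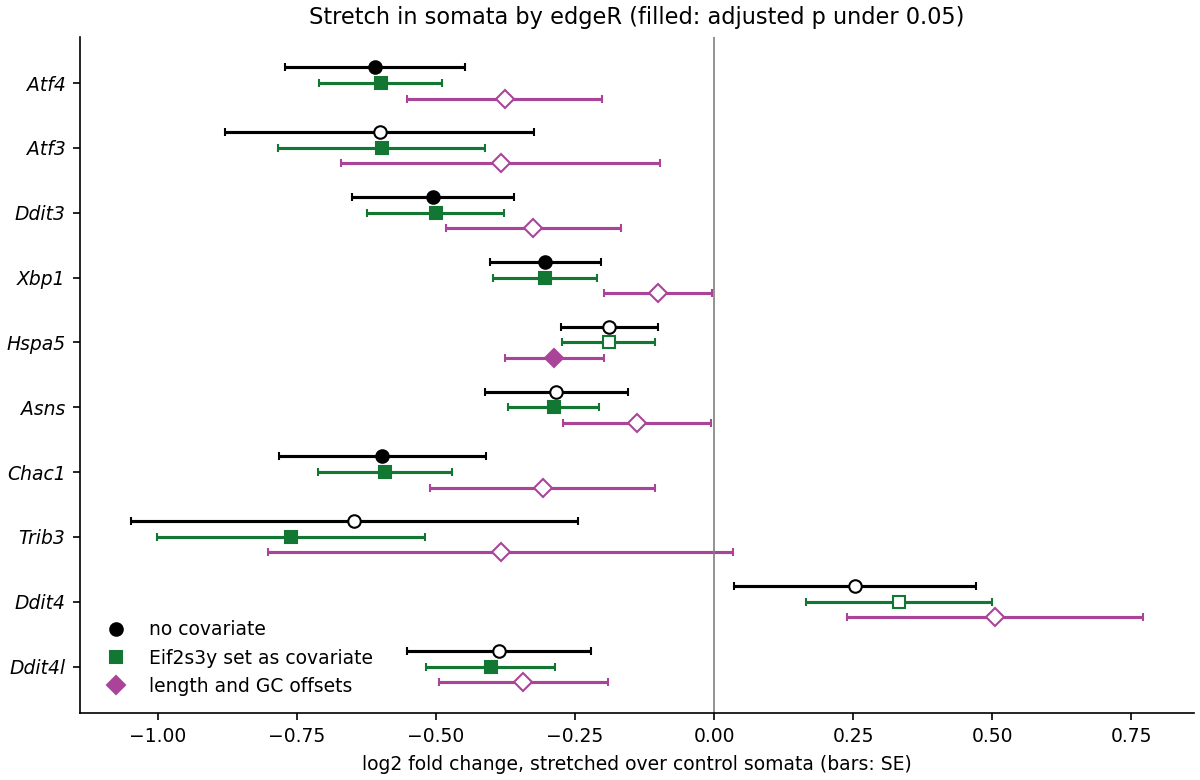
Log2 fold change of stretched over control somata with its SE for the 10 genes, fitted without a covariate (black circles), with the Eif2s3y set as covariate (green squares) and with offsets for transcript length and GC content (purple diamonds). Filled symbols passed at an adjusted p under 0.05: 4 without a covariate, 8 with the set and 1 with the offsets.

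The soma libraries also fell into 2 sets by the Y-linked gene Eif2s3y, a split made after the data were seen and named by no label. Controls 1, 2 and 3 and stretched replicates 1, 2 and 8 had 24.7 to 28.7 CPM, and the other 6 libraries had 5.39 to 13.2 CPM. In a fit with stretch in the model, 6 of the 10 stress genes were higher in the low-Eif2s3y set (Trib3, Atf3, Chac1, Ddit4, Atf4 and Asns) and Ddit4l was lower, where 13.3% of all genes tested differed, 6.17% higher and 7.13% lower (edgeR). Trib3 had 2.89 ± 1.12 CPM in high-set and 5.66 ± 0.551 CPM in low-set controls (SD, n = 3 each), and 1.39 ± 0.327 against 4.21 ± 1.11 CPM in stretched somata (SD, n = 3 each). The 2 sets did not overlap within either condition. The log2 difference, low over high, was 1.28 for Trib3 (SE 0.24, edgeR adjusted p = 0.00198), 0.79 for Atf3 (SE 0.19, 0.00936), 0.56 for Chac1 (SE 0.12, 0.00553), 0.45 for Atf4 (SE 0.11, 0.0132) and 0.39 for Asns (SE 0.08, 0.00469).

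With the level of Y-linked genes as covariate, the alternative planned for this split, the stretch comparison called 2 of the 10 genes, both lower: Atf4 at -0.36 (SE 0.11, edgeR adjusted p = 0.0267) and Ddit4l at -0.54 (SE 0.17, edgeR adjusted p = 0.0297). Ddit3 at -0.36, Chac1 at -0.32 and Xbp1 at -0.22 did not pass in that fit (edgeR adjusted p = 0.0626, 0.0709 and 0.103), and Atf3 was at -0.18 and Asns at -0.08. Of all 15632 genes tested, the fit with the Y-linked covariate called 4123, 1801 higher and 2322 lower. With the set itself as covariate, a choice made after the data were seen, the comparison called 8 of the 10 genes, all lower, and left out Hspa5 and Ddit4. Of all 15632 genes tested it called 5304, 2504 higher and 2800 lower. In this fit Atf4 changed by -0.60 (SE 0.11) and passed as it did without the covariate, while Asns at -0.29 (SE 0.08, edgeR adjusted p = 0.0138), Atf3 at -0.60 (SE 0.19, 0.0216), Trib3 at -0.76 (SE 0.24, 0.0231) and Ddit4l at -0.40 (SE 0.12, 0.015) passed in addition. Fitted within each set, 3 libraries against 3, the change of Atf4 was -0.47 in the high set, which passed (edgeR adjusted p = 0.0199), and -0.67 in the low set, which did not (edgeR adjusted p = 0.272). Within the low set 0 of 15718 genes passed with edgeR, and 2739 had an unadjusted p under 0.05. Ddit4 was at 64.0, 81.2 and 110 CPM in the high-set controls and at 143, 152 and 155 CPM in the high-set stretched libraries. This rise of 0.82 on the log2 scale passed (SE 0.17, edgeR adjusted p = 0.008). Calls were frequent in the high-set fit, which gave 4637 among its 15867 genes, with 2623 upward and 2014 downward. In the low set Ddit4 was at 152 to 191 CPM in controls and 136 to 185 CPM in stretched somata, a change of -0.10 (SE 0.14, edgeR adjusted p = 0.704). The difference between these 2 changes, -0.87 (SE 0.22), did not pass over all genes (edgeR, unadjusted p = 0.00153, adjusted p = 0.628).

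The other genes of the pathway are counted here list by list, beside 25.1% of all genes called, 11.2% higher and 13.9% lower. No list was tested against these shares. All list values are from the fit without covariate or offsets, which called 3929 of all genes, against 2497 with length and GC offsets. How the list genes change with these offsets or with the Eif2s3y set was not examined. Of 20 amino acid transport and synthesis genes linked to ATF4, all tested, 5 were lower and 1 higher, with a list median of -0.22. Slc3a2, the heavy chain of several amino acid transporters, fell from 480 ± 70.0 to 346 ± 26.3 CPM (SD, n = 6 each), by 0.51 on the log2 scale (SE 0.10, edgeR adjusted p = 0.00566). Psph and Psat1, enzymes of serine synthesis, fell by 0.69 (SE 0.15, edgeR adjusted p = 0.00703) and by 0.38 (SE 0.11, edgeR adjusted p = 0.019). Of 10 tested regulators linked to ATF4, 2 were lower: the stress-induced Nupr1 fell from 22.3 ± 6.21 to 10.7 ± 1.96 CPM (SD, n = 6 each) without overlap of the groups, by 1.10 on the log2 scale (SE 0.19, edgeR adjusted p = 0.00388), and Sesn2, an inhibitor of mTORC1, fell by 0.38 (SE 0.10, edgeR adjusted p = 0.0168). Of 13 tRNA synthetase-related genes 1 passed, the tRNA exporter Xpot, which rose by 0.59 (SE 0.15, edgeR adjusted p = 0.0141).

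Of 15 genes of the eIF2 kinases, eIF2 and its regulators, 2 were higher and 2 lower, with a list median of -0.06. The subunits Eif2b2 and Eif2b4 of the exchange factor eIF2B changed by -0.66 (SE 0.10, edgeR adjusted p = 0.00293) and -0.36 (SE 0.10, edgeR adjusted p = 0.0166), and the eIF2 subunit Eif2s3x by 0.54 (SE 0.12, edgeR adjusted p = 0.00984). None of the 4 eIF2 kinase genes passed. Of 11 ER sensors and membrane-bound factors 2 were higher, the proteases Mbtps1 (0.36, SE 0.10, edgeR adjusted p = 0.0176) and Mbtps2 (0.62, SE 0.17, edgeR adjusted p = 0.0187) that cleave ATF6, and 2 were lower, Creb3l1 at -0.48 (SE 0.13, edgeR adjusted p = 0.0171) and Creb3. Of 20 ER chaperones and folding enzymes 3 were higher and 3 lower, with a list median of -0.11. The chaperones Hyou1 (0.68, SE 0.17) and Canx (0.27, SE 0.07) rose and Hsp90b1 (-0.31, SE 0.09) fell, with edgeR adjusted p of 0.0127, 0.0158 and 0.0187. Of 15 genes of ER-associated degradation 3 were higher, Sel1l (0.50, SE 0.12), Derl2 (0.37, SE 0.09) and Erlec1, and 1 was lower, Selenos (-0.49, SE 0.11).

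In the mTORC1 list, on which Ddit4 and Ddit4l act, 2 of 13 genes were higher and 1 lower. Tsc2, through which DDIT4 inhibits mTORC1, rose by 0.49 (SE 0.12, edgeR adjusted p = 0.0134), Mtor rose by 0.56 (SE 0.19, edgeR adjusted p = 0.0435), and Akt1s1 fell by 0.44 (SE 0.11, edgeR adjusted p = 0.0114). Of 10 apoptosis genes linked to stress 2 were lower and 0 higher. Bbc3, which encodes the BH3 protein PUMA, was at 23.6 ± 13.9 CPM in control somata (SD, n = 6) and fell without overlap of the groups, with a log2 change of -1.60 (SE 0.31, edgeR adjusted p = 0.00532), and Bax fell by 0.32 (SE 0.07, edgeR adjusted p = 0.00903). Of 13 tested genes of the AP-1 family and of axon injury, 3 were higher, among them Sox11 at 0.56 (SE 0.13, edgeR adjusted p = 0.00892), and 3 lower, among them Jund at -2.08 (SE 0.38, edgeR adjusted p = 0.00496) and Smad1 at -0.77 (SE 0.20, edgeR adjusted p = 0.0158). Of all these lists the medians ran from -0.35 to 0.25, and the median of the 10 stress genes lay below them. Among the list genes called, Canx and Derl2 rose without overlap of the groups, and Eif2b2, Creb3l1, Nupr1 and Bbc3 fell without overlap. Over all genes tested, the groups did not overlap for 4.11%.

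**Figure D3:**
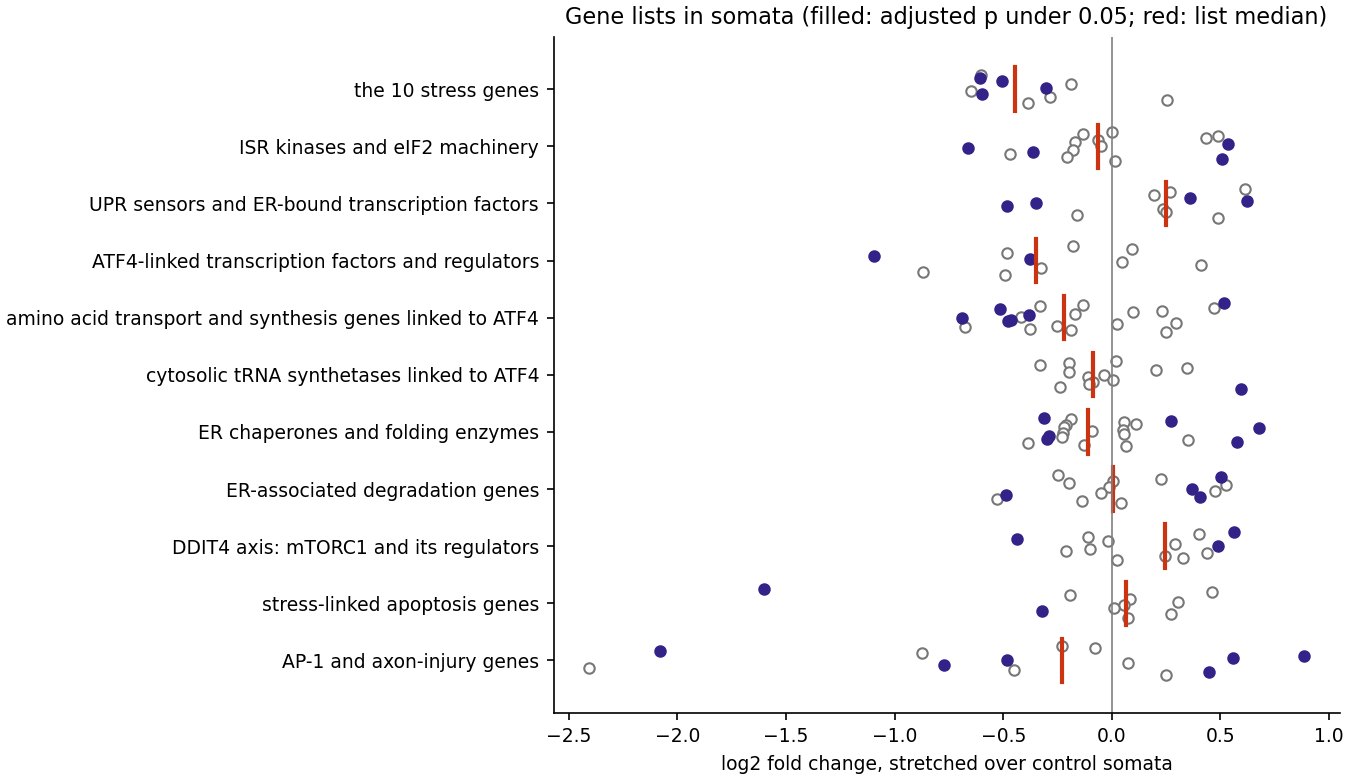
Log2 fold change of stretched over control somata for the 10 stress genes and for each gene of 10 pathway lists (points; filled where the edgeR adjusted p was under 0.05; red line, list median). The stress genes have the lowest median at -0.45, and most other lists hold filled points on both sides of 0. All values are from the fit without covariate or offsets.

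The next comparison set axons against somata, with the same libraries as the comparisons of stretch. Axonal libraries held these genes in an all-or-none manner: of the 110 pairs of a gene and an axonal library, 42 had 0 counts, 4 had 1 to 19 counts, none had 20 to 99 and 64 had 100 or more. Among the 13916 genes with at least 1 CPM in somata, 61.8% of such pairs were at 0, 7.17% had 1 to 99 counts and 31.0% had 100 or more. Each axonal library held 4 to 8 of the 10 genes above 3 counts, 4 in the library with the fewest detected genes (stretched replicate 1, 4263 genes) and 8 in the 2 libraries with the most (control replicate 5 and stretched replicate 8, 10242 and 10065 genes).

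**Figure D4:**
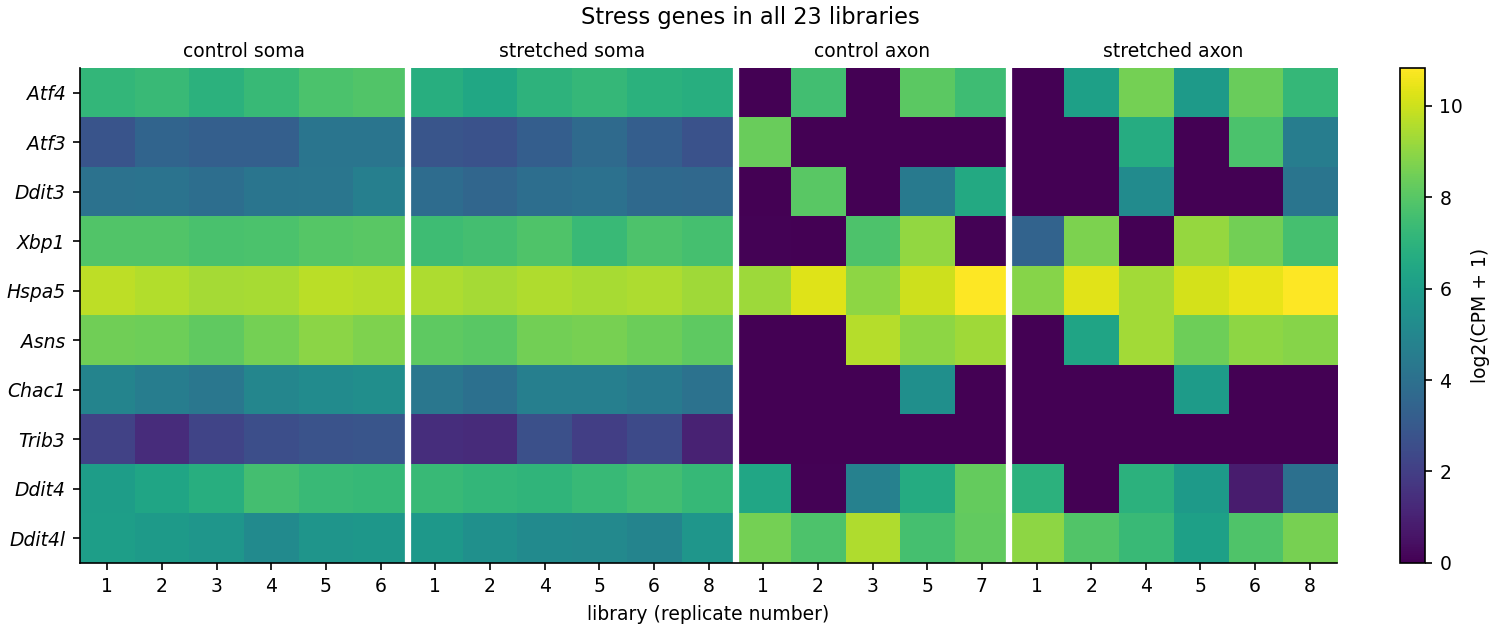
Level of the 10 genes in each of the 23 libraries as log2(CPM + 1), one column per library with its replicate number. All 10 genes are present in each soma column, while axonal columns mix genes at 0 with genes at or above their somatic level. Hspa5 and Ddit4l have counts in all 11 axonal libraries.

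Hspa5 and Ddit4l were the only 2 of the 10 found in all 11 axonal libraries. Ddit4 had counts in 10, although 1 of these held a single count, and Xbp1 had counts in 9, of which 2 held a single count. Atf4 and Asns were found in 8, Ddit3 in 5, Atf3 in 4 and Chac1 in 2 libraries. Where Asns was present it was at 78.3 to 796 CPM, and where Atf4 was present at 59.1 to 373 CPM. Trib3 was not found in any axonal library. In somata it was at 4.28 ± 1.71 CPM in control and 2.80 ± 1.71 CPM in stretched cultures (SD, n = 6 each). These means lay 25.6-fold and 15.3-fold above a floor of 3 counts in the shallowest axonal library of the group. That floor reflects counting error alone. Whether RNA at so low a level would be captured from axons was not tested, so the folds are no measure of a difference between compartments. Trib3 entered the edgeR test only through the soma libraries, so its call there is no further support. In the range of 1 to 10 CPM in somata, where Trib3 and Atf3 lie, 34.2% of 4387 genes were in no axonal library. Of the 7162 genes with 10 to 100 CPM in somata, 2.57% were in all 11 axonal libraries, and Ddit4l, at a mean of 46.1 CPM, was 1 of them. Of the 2279 genes with 100 to 1000 CPM, 23.7% were in all 11, Hspa5 among them.

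**Figure D5:**
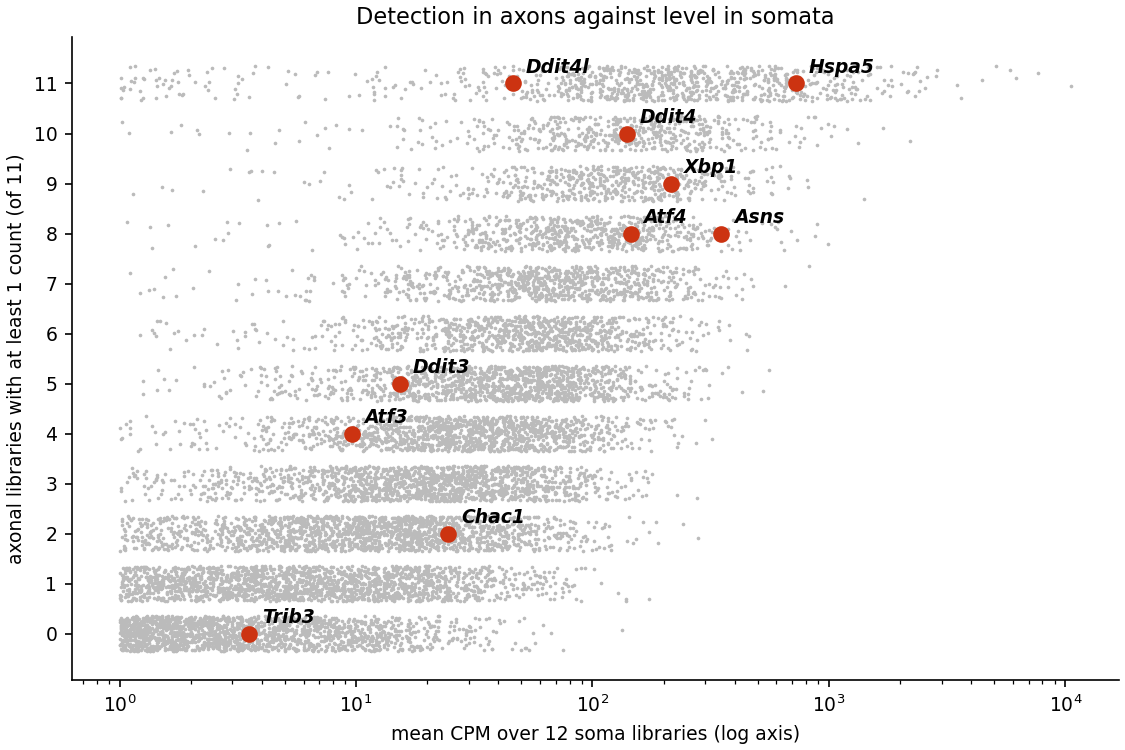
Number of axonal libraries with at least 1 count (vertical axis, of 11, points spread slightly) against the mean CPM over 12 soma libraries (log axis) for 13916 genes with at least 1 CPM in somata, the 10 stress genes in red. Ddit4l lies at 11 libraries with 46.1 CPM, left of most genes in that row.

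Ddit4l was 1 of 2 members that passed between compartments in control cultures and the only one that was higher in axons. The other was Trib3, which entered the test only through the soma libraries. Of all 14728 genes 35.3% passed, 0.856% higher and 34.4% lower. Ddit4l was at 377, 223, 749, 199 and 297 CPM in control axon replicates 1, 2, 3, 5 and 7, against 35.6 to 65.4 CPM in control somata. In stretched axons it lay between 70.4 and 512 CPM (median 231), against 29.0 to 54.4 CPM in stretched somata. Every axonal library was above every soma library of its condition, as 41.6% of all genes tested in control and 35.9% in stretched cultures did not overlap in either direction. The ratio of the group means was 7.16 in control and 6.55 in stretched cultures, with log2 fold changes of 2.59 (SE 0.48, edgeR adjusted p = 0.000746) and 2.20 (SE 0.51, edgeR adjusted p = 0.00404). With the replicate number as a block Ddit4l passed in neither condition (edgeR adjusted p = 0.372 and 0.346). In stretched cultures, where 29.3% of 14466 genes passed, 0.843% higher and 28.4% lower, Trib3 and Ddit4l were again the 2 that passed with edgeR, while limma voom did not call Trib3 there. The astrocyte markers, which were also abundant in axonal libraries, had summed medians of 18261 CPM in control axons and 8518 CPM in control somata. In stretched cultures these were 8163 and 8506 CPM. Taken singly, 6 of the 8 markers had an axon over soma log2 fold change below 0 in each condition, and 0 were called. Their median was -0.48 in control and -0.83 in stretched cultures, beside -1.40 and -1.13 over all genes tested. The part of the astrocyte markers in the level of Ddit4l was not tested.

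Its paralog Ddit4 did not share this pattern. It was at 84.9, 0.0499, 26.4, 99.2 and 308 CPM in control axon replicates 1, 2, 3, 5 and 7, around the 64.0 to 191 CPM of control somata. In stretched axons it lay between 0 and 123 CPM (median 37.1), and all 6 libraries were below every stretched soma library (136 to 185 CPM), yet the difference did not pass (edgeR adjusted p = 0.372). Hspa5 was at 610, 1251, 506, 1035 and 1817 CPM in control axon replicates 1, 2, 3, 5 and 7 and at 459 to 1800 CPM in stretched axons (median 1202), on both sides of the somatic range. Its log2 fold change of axon over soma was 0.19 (SE 0.31) in control and 0.28 (SE 0.35) in stretched cultures and did not pass (edgeR adjusted p = 0.82 and 0.799).

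The last comparison asked what stretch did to these genes in axons. None of the 7 members that passed the filter on low counts was called by edgeR, nor was any of the 4947 genes tested (0%); 46 genes and 0 members had an unadjusted p under 0.05, DESeq2 called 18 genes and limma voom 9, and neither called a member. Atf3, Trib3 and Chac1 did not pass the filter. Atf4 was found in 3 of 5 control and 5 of 6 stretched libraries, and so was Asns. Ddit3 was in 3 of 5 control libraries, at 21.2 to 262 CPM where present, and in 2 of 6 stretched libraries, at 17.5 and 36.8 CPM. Atf3 was in 1 of 5 control libraries, at 329 CPM, and in 3 of 6 stretched libraries, at 23.3, 104 and 218 CPM. Chac1 was in 1 library of each group. For the 2 genes found in all libraries, the log2 fold change was 0.14 (SE 0.45) for Hspa5 and -0.48 (SE 0.86) for Ddit4l (edgeR adjusted p = 1.00 each). At this spread an absence of change was not shown.

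Over the 12 soma libraries, with the group means removed, Atf4 varied with several of its known targets. Pearson's r of log2(CPM + 1) between Atf4 and Asns was 0.89, with Chac1 0.88, with Atf3 0.88 and with Ddit3 0.88 (n = 12 libraries). For the other members r with Atf4 was lower: 0.55 for Trib3, 0.44 for Hspa5, 0.42 for Ddit4, 0.34 for Xbp1 and -0.25 for Ddit4l. Chac1 and Asns had the highest r of all pairs, 0.93, and Ddit4l and Trib3 the lowest, -0.69. These libraries share the Eif2s3y split, and the values are descriptions. Among 9529 genes with at least 10 CPM in somata, those most like Atf4 were Rnf182 (r = 0.97), Ddx50 (0.95) and the serine hydroxymethyltransferase Shmt2 (0.94). Most like Asns were Lin7a (0.98), Arf2 (0.98) and the cysteinyl-tRNA synthetase Cars (0.98), and most like Chac1 were Klf6 (0.98), Ppp1r18 (0.97) and G3bp2 (0.97). For Ddit4l they were Rida (0.94), Tubb2a (0.94) and Gsta4 (0.94).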

How the data were processed

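RNA was sequenced as poly(A) cDNA from low input with molecular identifiers, per the labels. The authors deposited counts of reads as whole numbers, by Ensembl gene ID. The submitters' processing notes name fastp 0.20.1, STAR 2.7.08a, HTSeq 0.13.5 and the build mm10; the annotation, strand setting and any use of the identifiers are not given in the sources used here. Totals of ambiguous reads (4.37% to 5.94% of reads), reads aligned to several places (5.43% to 13.4%) and reads in no gene (3.18% to 7.94%) were left out. Of 55487 IDs, 55141 matched a symbol and a GENCODE transcript (release M21).

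CPM uses the total gene count of each library. Each comparison was fitted on its own 2 groups with edgeR 4.0.16 (R 4.3.3): filterByExpr, TMM, robust quasi-likelihood F test, Benjamini-Hochberg over all genes tested, threshold 0.05. The SE is the fold change divided by the square root of F. The fit was tested on simulated data. Alternatives used DESeq2 1.42.0, limma 3.58.1, other scalings and filters, covariates, length and GC smooths (mgcv 1.9.3), the replicate number as a block and each library left out. All 10 members are named, and from each of 10 pathway lists up to 3 genes with the smallest p among those that passed; Erlec1 and Creb3 were named after their values were seen, to complete counts. The members and lists were chosen with earlier results of these data known. The floors reflect counting error alone, because reads from amplified cDNA can copy 1 molecule.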

Additional observations from a re-analysis of the deposited data

Results flagged for a closer look

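In 4 cases 1 library stood apart from the rest of its group by the gap to its neighbour relative to the range of the group. About 1 in 20 groups with a normal spread is marked this way by chance. That share does not apply to Atf3 and Chac1 below, where any single library with counts among libraries at 0 is marked. Atf3 was at 329 CPM in control axon replicate 1 and at 0 in the other 4 control axon libraries. Chac1 was at 41.3 CPM in control axon replicate 5 and at 60.0 CPM in stretched axon replicate 5, and at 0 in all other axonal libraries. Ddit3 was at 24.4 CPM in control soma replicate 6, above the 14.2 to 17.8 CPM of the other 5 control somata.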

How the results depend on the processing

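In somata 4 of the 10 genes passed. The count was 2 with the Y-linked genes as covariate, 1 with length and GC offsets, 2 with the replicate block together with these offsets, 0 in the 6 libraries with low Eif2s3y and 8 with the Eif2s3y set as covariate, the last 2 chosen after seeing the data. Leaving out 1 library gave 1 to 6. Over all genes, 3929 passed, 0 in the low set, 4123 with the Y-linked genes as covariate and 5304 with the Eif2s3y set as covariate. Of all genes 2497 passed with the offsets, 2027 with block and offsets, and 2666 to 6072 without 1 library. Directions held under every setting run except for Ddit4, which reversed to -0.10 in the low set. With the replicate block 6 of the 10 passed (Asns and Ddit4l in addition) and 3209 of all genes. Between axon and soma, limma voom called 7 members in control and 4 in stretched cultures (Ddit3, Chac1, Ddit4 and Ddit4l, without Trib3) against 2 each. Over all genes it called 9912 of 14728 in control and 10203 of 14466 in stretched cultures, against 5196 and 4234 with edgeR. The replicate block called 1 member and 5287 of all genes in control cultures, and leaving out 1 library gave 2 to 3 members. With the block Ddit4l was at 2.32 in control and 2.01 in stretched cultures (edgeR adjusted p = 0.372 and 0.346). Hspa5, which passed in no comparison that used axons, reversed in axons under stretch with the block (-0.24) and, axon against soma in control cultures, with limma voom (-0.021) and the block (-0.23); without 1 library it ran from -0.086 to 0.42 and from -0.11 to 0.35. The replicate numbers were not taken as pairs, and the call of Ddit4l between axon and soma depends on this choice. Correlations of deviations of same-numbered libraries ran from 0.0081 to 0.397 in somata (5 pairs), and 2 of these 5 pairs correlated best with each other. Their mean was 0.226, against -0.036 for different numbers. Between axon and soma these means were 0.063 against -0.011 in control and 0.012 against -0.0023 in stretched cultures. Member detections in axons were 68 of 110, 65 at 4 counts or more and 67 at equal depth. The causes were not tested.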

Other observations

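Other genes of the pathway were also compared between axon and soma, where 5070 of 5196 calls over all genes in control and 4112 of 4234 in stretched cultures were lower. Of the 10 pathway lists, the eIF2 list had 1 gene lower in control (Eif2b5) and 2 in stretched axons, the kinases Eif2ak3 (PERK) and Eif2ak4 (GCN2). Eif2ak3 was at 7.60 ± 1.89 CPM in stretched somata (SD, n = 6) and had no count in the 6 stretched axon libraries. The ER sensors Ern1 (IRE1) and Atf6 had no count in stretched axons either, from 5.06 ± 1.58 and 28.3 ± 2.58 CPM in stretched somata (SD, n = 6 each; Atf6 was named after its value was seen). Eif2b5 had no count in control axons, and Eif2ak4 had a mean of 0.0253 CPM in stretched axons. Eif2b5, Eif2ak3, Eif2ak4, Ern1 and Atf6 entered the tests only through the soma libraries. Their calls are thus no further support, and no p is given. Among the 143 genes of these lists, not all of them tested, 1 was called higher in axons, in stretched cultures only. Of all genes tested there, 0.843% were called higher. Eif4ebp1, the translation repressor 4E-BP1 and a known ATF4 target, was at 157 ± 77.3 CPM in stretched axons and 27.9 ± 6.37 CPM in stretched somata (SD, n = 6 each). The 2 groups overlapped, and the log2 change was 2.01 (SE 0.54, adjusted p = 0.0117 in edgeR). In stretched axons the ER chaperone list had 0 genes called of 19 tested and a median log2 fold change of 0.14. The medians of the 10 lists there ran from -3.01 for ER sensors and membrane-bound factors to 1.14 for regulators linked to ATF4. The median of all genes tested was -1.13, and the lists were not matched to all genes by level. Genes at 1 to 10 CPM in somata had counts in a median of 1 axonal library, and those at 100 to 1000 CPM in 9.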
